A study of Arabidopsis thaliana with 12 samples.

Results

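The B-box zinc finger family of Arabidopsis thaliana was followed through whole-seedling messenger RNA of 4 genotypes. Its members were taken by locus code: BBX2 to BBX32, which are 31 of the 27588 genes in the count table, with the founding member CONSTANS left out. Of the 31, 27 passed the filter on low counts and could be tested. Per the labels, all groups are whole seedlings of the Columbia 0 ecotype, with 3 libraries each of wild type (Col-0), the cfh1-1 mutant (cfh1 below), a line carrying a CFH1 decoy, and PIF3 over-expression. Sample titles of the last group say pif3 mutant, but genotype and description say over-expression, and PIF3 itself was at 348 to 363 CPM there and at 20.9 to 43.3 CPM in the other libraries. Seedlings spent 7 days in 12 h light and 12 h dark, then stood in constant red light until collection on day 12 at zeitgeber time 1 (hours after the former dawn). The sources used here do not give the promoters of the decoy and PIF3 transgenes, the number of independent lines or the locus of CFH1. They also do not say whether a genotype's libraries are separate cultures, so the p-values rest on a spread that may be technical. All seedlings were taken at 1 time, and for a cycling transcript level and phase cannot be told apart.

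B-box proteins carry zinc-binding domains near the amino terminus that mediate contacts between proteins. Some, the CONSTANS-LIKE (COL) factors, end in a CCT domain shared with clock and flowering regulators. Others work beside the bZIP factor HY5, either helping it or holding it back during light-driven seedling development, and many are marked for destruction by the COP1-SPA ubiquitin ligase. The usual structural groups are I (BBX2 to BBX6) and II (BBX7 to BBX13), with tandem B-boxes and a CCT domain, III (BBX14 to BBX17), with a single B-box and a CCT domain, IV (BBX18 to BBX25), with tandem B-boxes alone, and V (BBX26 to BBX32), with a single B-box alone. A cysteine-histidine pattern for the domain, searched in the longest translated product of each gene model, matched at 2 places in 14 members and at 1 place in 15, and did not match BBX16 or BBX26. All members of group I matched at 2 places, and of group IV all but BBX19, whereas BBX7 to BBX11 of group II matched at 1 place.

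The regulatory sequence before 4 members that passed a test is shown here as examples. BBX3 fell in the decoy line and with PIF3 over-expression, BBX24 and BBX28 rose in the decoy line, and BBX16 fell with PIF3 over-expression. The rises of BBX24 and BBX28 against Col-0 and the fall of BBX3 with PIF3 over-expression did not hold under every alternative, as given below. Each sequence is the 250 bases before the annotated gene start, 5′ to 3′ on the gene's strand, from the RefSeq TAIR10.1 genome and annotation. Capitals mark matches on either strand to the evening element AAAATATCT (in BBX3 and BBX24) or the CCA1 binding site AAAAATCT (BBX28, at 2 places). The windows are chr3:489468-489717 (minus strand), chr1:1829984-1830233 (minus strand), chr4:13675287-13675536 (plus strand) and chr1:27778734-27778983 (plus strand).
BBX3: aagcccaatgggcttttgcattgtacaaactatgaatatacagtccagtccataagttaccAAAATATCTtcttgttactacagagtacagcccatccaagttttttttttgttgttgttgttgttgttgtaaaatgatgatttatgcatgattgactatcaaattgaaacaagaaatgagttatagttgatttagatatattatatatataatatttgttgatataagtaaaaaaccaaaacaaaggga
BBX24: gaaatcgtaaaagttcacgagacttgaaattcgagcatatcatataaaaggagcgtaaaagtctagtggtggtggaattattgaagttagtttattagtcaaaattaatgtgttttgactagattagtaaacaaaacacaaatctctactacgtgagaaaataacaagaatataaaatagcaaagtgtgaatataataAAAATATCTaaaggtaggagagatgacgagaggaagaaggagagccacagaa
BBX28: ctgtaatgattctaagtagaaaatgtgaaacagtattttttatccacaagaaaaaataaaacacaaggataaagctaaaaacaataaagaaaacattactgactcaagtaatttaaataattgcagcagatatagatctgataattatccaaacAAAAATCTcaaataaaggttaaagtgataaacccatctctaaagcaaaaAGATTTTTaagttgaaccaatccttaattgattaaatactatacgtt
BBX16: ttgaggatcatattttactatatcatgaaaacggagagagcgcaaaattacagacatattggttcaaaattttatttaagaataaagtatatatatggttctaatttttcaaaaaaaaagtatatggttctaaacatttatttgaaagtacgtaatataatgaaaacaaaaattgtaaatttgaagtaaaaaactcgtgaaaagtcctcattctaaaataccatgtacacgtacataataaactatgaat

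The evening element stood in this window of 3 of the 31 members (BBX3, BBX8 at 3 places, and BBX24) and in 2.36% of 27443 protein-coding genes. The CCA1 binding site stood in 3 members (BBX11, BBX26 and BBX28) and in 6.69% of genes. The G-box CACGTG, the core to which PIF factors bind, stood in 4 members (BBX5, BBX9, BBX10 and BBX30) and in 6.49% of genes. None of the 3 motifs stood in the windows of group III, BBX16 included. The windows of BBX6 and BBX29, whose calls in the decoy line held under every alternative, held none of them either. The gene models of BBX5 and BBX26 hold no untranslated region, so their windows run back from the start codon. The motif counts are matches of letters, and they say nothing of occupancy.

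Total counts ran from 21914394 (decoy replicate 1) to 34345088 (decoy replicate 2) per library. Levels are CPM (counts relative to the TMM-scaled size of their library), and a mean ± SD is over the 3 libraries of a genotype. Fold changes and adjusted p come from an edgeR quasi-likelihood fit to all 12 libraries, and a member was called at an adjusted p under 0.05 over 21235 genes. Rank correlations of libraries within a genotype ran from 0.983 to 0.987 in the decoy line and from 0.989 to 0.995 elsewhere. The decoy line also held many near-silent genes: 211 of its 4504 lower genes had 3 counts or fewer over its 3 libraries, against 4 of 1554 with PIF3 over-expression and 0 of 12 in cfh1. An effect of the decoy therefore cannot be told apart from another difference of that line.

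In Col-0, levels per kb of annotated exon spanned a wide range. COL4 (BBX5, AT5G24930) stood at 153 CPM per kb, followed by COL3 (BBX4, AT2G24790), a COP1-binding promoter of de-etiolation, at 130 CPM per kb. BBX15 (AT1G25440) and BBX14 (AT1G68520) of group III stood at 117 and 115 CPM per kb, and STO (BBX24, AT1G06040), which dampens HY5 activity, at 90 CPM per kb. BBX21 (AT1G75540), a HY5 partner that promotes photomorphogenesis, stood at 61.2 CPM per kb. Group I and group III thus supplied the 4 highest levels. At the other end, BBX29 (AT5G54470) stood at 2.03, BBX32 (AT3G21150) at 3.48 and the microprotein gene BBX31 (AT3G21890) at 3.63 CPM per kb, all of group V.

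**Figure D1:**
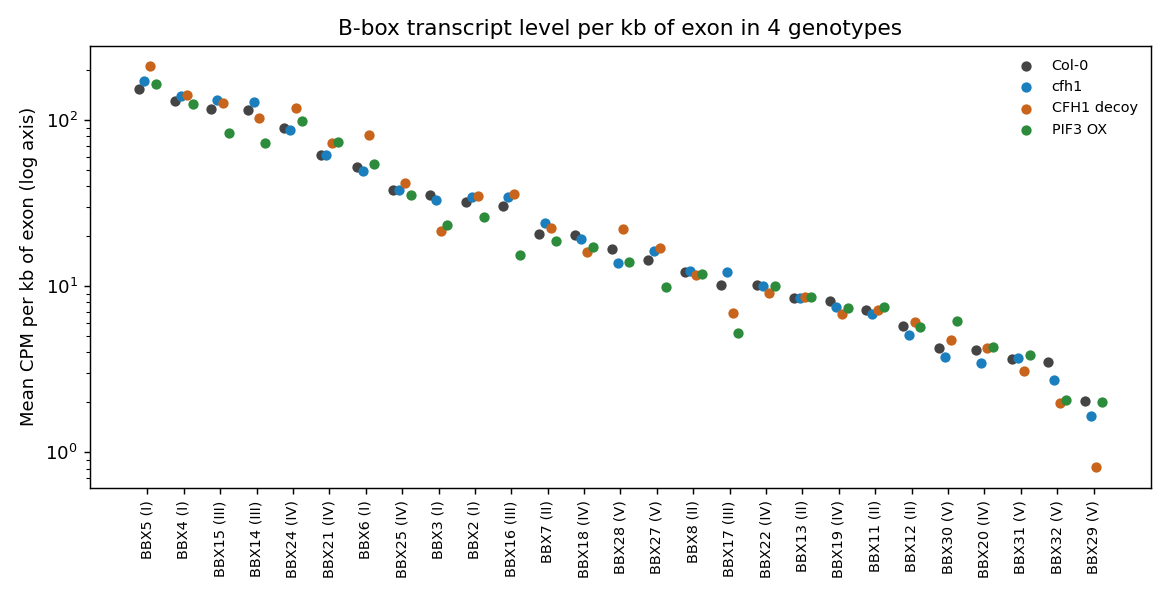
Mean CPM per kb of exon (log axis) of the 27 tested B-box genes, ordered by their Col-0 level, with 1 point per genotype and the structural group in brackets. Levels in Col-0 run from 153 CPM per kb for BBX5 to 2.03 for BBX29, and the points of a gene lie close together except at members such as BBX16, BBX17 and BBX29.

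The 4 members that did not pass the filter were close to silent everywhere. BBX9 (AT4G15250) had at most 2 counts in a library and 0 in all Col-0 and decoy libraries, and BBX10 (AT3G21880) had 0 to 2. BBX23 (AT4G10240) had 2 counts in each of 2 libraries, and BBX26 (AT1G60250) had 1 count in 1 library. In single libraries a floor of 3 counts corresponds to 0.0843 to 0.173 CPM, which covers counting error only, so these genes were not detectable above that level. BBX9 and BBX10 each lie tail to tail with an expressed microprotein gene. BBX10 (chromosome 3, 7706257 to 7708346, plus strand) faces BBX31 (7708833 to 7709933, minus strand), and BBX30 (AT4G15248, chromosome 4, 8708841 to 8709482, plus strand) faces BBX9 (8709767 to 8711526, minus strand). BBX30 and BBX31, short proteins that bind CONSTANS and the co-repressor TOPLESS, stood at 2.74 ± 0.287 and 3.998 ± 0.498 CPM in Col-0.

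No B-box member passed the test in the cfh1 mutant, in either direction. The background was as low, with 0.0141% of all genes higher and 0.0565% lower than Col-0 in this line. At an unadjusted p under 0.05, 0 of the 27 members were higher and 0 lower, beside 2.11% and 2.43% of all genes. By DESeq2 0 were called, beside 0.0314% of its tested genes higher and 0.144% lower. Log2 fold changes ran from -0.35 (BBX32) to 0.26 (BBX17), and the smallest adjusted p was 0.969. The 95% intervals of all 27 lay inside a change of 1 log2 unit either way, from -0.925 at the lowest bound to 0.988 at the highest, and 13 lay inside 0.5. The median over the members was -0.01, beside 0.00 over all genes. The spread between cfh1 libraries was wide in some members: BBX14 was at 320, 272 and 423 CPM in replicates 1, 2 and 3, and BBX32 at 3.69, 4.68 and 2.20. Replicate 3 gave the highest cfh1 value in 12 members and the lowest in 13, whereas replicate 1 did so in 5 and 2.

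**Figure D2:**
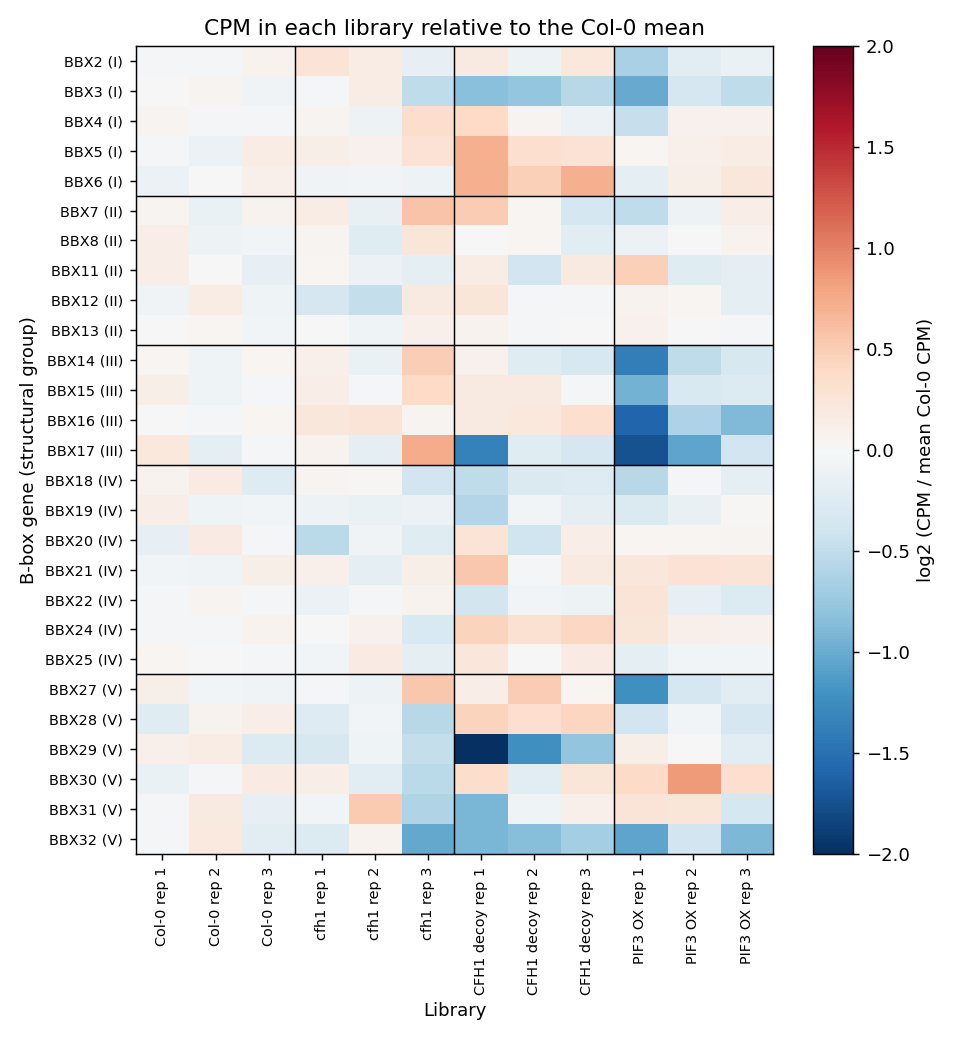
Log2 ratio of each library's CPM to the mean Col-0 CPM for the 27 tested B-box genes (rows, grouped by structural group) in 12 libraries (columns, grouped by genotype). The cfh1 columns stay pale except in replicate 3, group III is blue with PIF3 over-expression, darkest in replicate 1, and BBX29 is blue in the decoy line.

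In the CFH1 decoy line, 4 of 27 tested members rose and 3 fell, beside 19.6% of genes higher and 21.2% lower in the whole table. At an unadjusted p under 0.05 the numbers were 4 and 3 as well, beside 24.4% and 25.6% of all genes. The members' share called was no higher than the background at either threshold. The family's median log2 fold change was 0.06, beside 0.00 over all genes. Group I held 2 of the rises and a fall, group IV a rise, and group V a rise and 2 falls. Of the 5 tested members of group II and the 4 of group III, 0 were called.

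COL5 (BBX6, AT5G57660), which can induce flowering when over-expressed, was at 133, 113 and 133 CPM in decoy replicates 1 to 3 and at 74.9, 81.3 and 87.0 CPM in Col-0. The groups did not overlap, and the log2 fold change was 0.64 (SE 0.12, adjusted p 0.00127). COL4 (BBX5), a relative in the same group, was at 273, 211 and 205 CPM against 161, 153 and 185, a log2 fold change of 0.46 (SE 0.13, adjusted p 0.0137). Decoy replicate 1 was the high one here, and without it the value was 0.31, with an adjusted p of 0.0526. COL2 (BBX3, AT3G02380) went the other way, at 44.5, 46.4 and 54.1 CPM against 79.7, 82.8 and 76.1. All 3 decoy libraries lay below all Col-0 libraries, with a log2 fold change of -0.72 (SE 0.181, adjusted p 0.00765). COL1 (BBX2, AT5G15850), its neighbour in sequence whose over-expression shortens the circadian period, stood at 58.9 ± 6.73 against 54.8 ± 2.54 CPM and COL3 at 184 ± 34.3 against 168 ± 5.15 CPM, and neither passed.

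Of the factors that act with HY5, STO (BBX24) was at 181, 164 and 176 CPM in the decoy line and at 129, 130 and 140 in Col-0. The groups did not overlap, and the log2 fold change was 0.39 (SE 0.115, adjusted p 0.0174). BBX28 (AT4G27310), which binds HY5 and lowers its activity, was at 32.4, 29.9 and 32.05 CPM against 20.1, 25.05 and 26.1, a log2 fold change of 0.41 (SE 0.143, adjusted p 0.0374). STH (BBX25, AT2G31380), the nearest relative of STO, stood at 0.13 (adjusted p 0.333), and BBX21 and LZF1 (BBX22, AT1G78600), which promote photomorphogenesis with HY5, at 0.24 (adjusted p 0.182) and -0.16 (adjusted p 0.386). These 3 did not pass.

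The lowest relative level in the decoy line was that of BBX29, a close relative of BBX28, with 8, 32 and 39 counts (0.460, 0.992 and 1.35 CPM). Col-0 had 87, 88 and 56 counts (2.497, 2.58 and 1.92 CPM). The log2 fold change was -1.27 (SE 0.311, adjusted p 0.00649), so BBX28 and BBX29 moved in opposite directions. BBX32, which binds BBX21 and restrains HY5-dependent development, fell to 2.36, 2.48 and 2.78 from 4.39, 5.13 and 3.88 CPM, a log2 fold change of -0.81 (SE 0.273, adjusted p 0.0306). The microprotein genes BBX30 (0.14) and BBX31 (-0.22) did not pass.

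**Figure D3:**
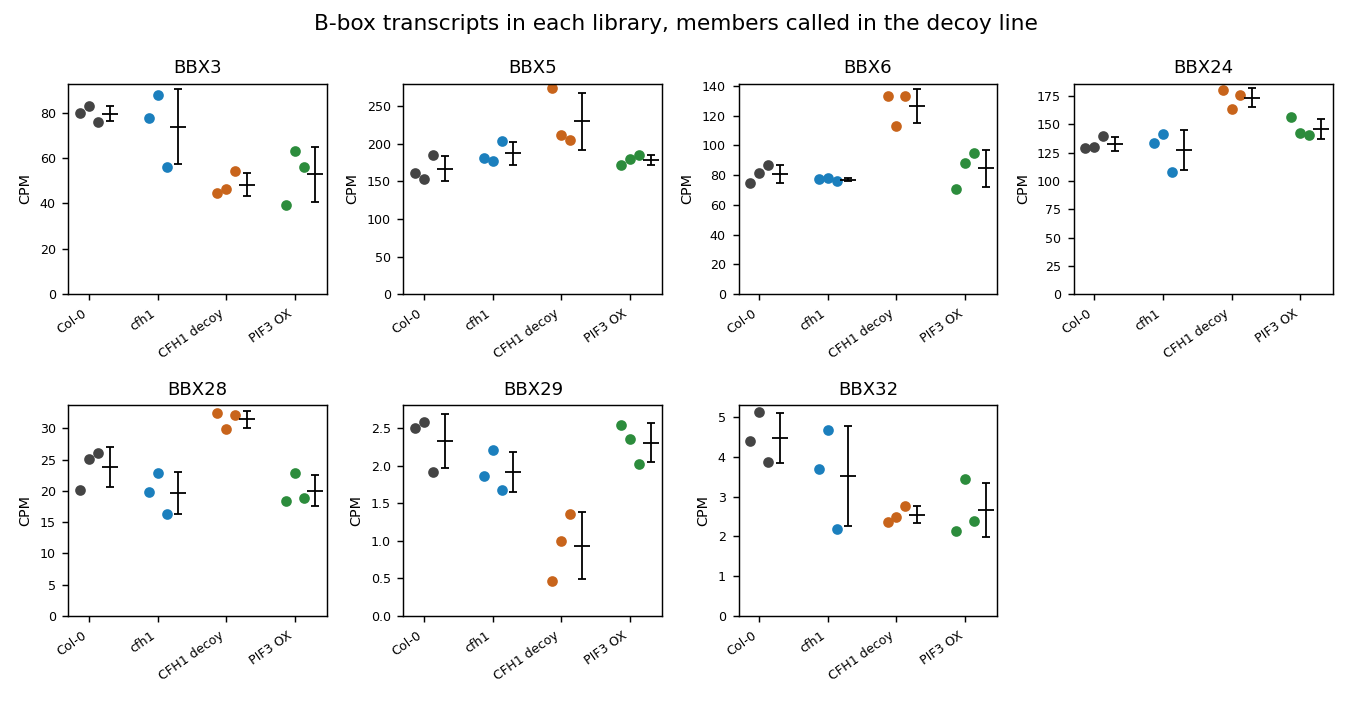
CPM of the 7 members called in the decoy line, 1 point per library for each genotype, with a dash and bar for the mean and SD of 3 libraries. BBX6 lies at 113 to 133 CPM in the decoy line, above all other libraries, and BBX29 at 0.460 to 1.35 CPM, below all others.

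The calls for BBX3, BBX6 and BBX29 in the decoy line held without any single library and under each other setting, although the value of BBX6 was 0.38 with library totals. BBX24 was lost without Col-0 replicate 1 (0.37) or 2 (0.37), BBX5 without Col-0 replicate 1 (0.44), 2 (0.40) or decoy replicate 1, BBX28 without Col-0 replicate 1 (0.30), 2 (0.44) or decoy replicate 1 (0.38) or 3 (0.38), and BBX32 without Col-0 replicate 1 (-0.83), 2 (-0.70) or decoy replicate 1 (-0.78) or 2 (-0.80). Library totals as the scale shifted the median of all genes by -0.25, and 1 member was then higher (BBX6) and 5 lower (BBX3, BBX18, BBX19, BBX29 and BBX32), beside 8.1% and 32.6% of all genes. BBX5, BBX24 and BBX28 stood at 0.20, 0.13 and 0.15 on that scale and did not pass. Changes in this line are therefore given relative to the bulk of genes.

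Tissue markers moved with the decoy line. The summed level of 3 photosynthesis markers was 37890 to 54830 CPM, against 24900 to 27700 in Col-0 and 13920 to 21100 with PIF3 over-expression, and 2 of the 3 rose in the decoy line. The summed level of 6 root markers was 5402 to 7020 CPM against 3387 to 4604 in Col-0, with 2 higher and 2 lower. PYK10 made up most of that sum, at a mean of 6091 CPM in the decoy line and 3388 in Col-0. PYK10 and NRT2.1 (2.08 CPM in the decoy line) were higher, NAI2 and EXPA7 lower, and CASP1 and COBL9 did not pass. No marker was at 0 in any library. The part of the tissue markers in the B-box values was not tested. In whole seedlings fewer cells of a type and less RNA per cell cannot be told apart.

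With PIF3 over-expression, 2 of 27 members fell and 0 rose against Col-0, beside 7.32% of all genes lower and 6% higher. At an unadjusted p under 0.05, 7 members were lower and 1 higher, beside 14.5% of all genes lower and 12.6% higher. By DESeq2, 5 fell and 0 rose, beside 9.51% and 7.3% of the genes it tested. Of the structural groups, group III had the lowest median log2 fold change, -0.81, beside -0.07 over the tested members and 0.00 over all genes. All 4 of its members had their 3 libraries below every Col-0 library, which held for 9 of the 27 tested members in all and for 21.2% of all genes. A further 3 members lay wholly above Col-0, beside 19.9% of all genes.

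BBX16 (COL7, AT1G73870), which acts downstream of the GLK1 factor in chloroplast-to-nucleus signalling, was at 17.04, 33.3 and 27.7 CPM with PIF3 over-expression and at 50.7, 50.3 and 52.7 in Col-0. It fell to 0.508 of the wild-type level (log2 fold change -0.98, SE 0.18, adjusted p 0.00576), and the call held under every alternative run. BBX14 (AT1G68520) was at 115, 211 and 241 CPM against 309, 283 and 307, with a log2 fold change of -0.67 (adjusted p 0.0822). BBX15 (AT1G25440) was at 106, 164 and 167 CPM against 220, 190 and 198, with -0.48 (adjusted p 0.0883). BBX17 (AT1G49130) was at 5.81, 9.27 and 14.9 CPM against 22.3, 16.98 and 18.8, with -0.95 (adjusted p 0.0874). Replicate 1 was the lowest in all 4, and BBX14, BBX15 and BBX17 did not pass in the fit of 12 libraries. Without replicate 1 the values were -0.41 for BBX14, -0.29 for BBX15, -0.68 for BBX17 and -0.75 for BBX16, the last of which passed (adjusted p 0.00539). DESeq2 called all of BBX14, BBX15 and BBX17 with 12 libraries. Without replicate 3, BBX14 and BBX17 were called lower, and BBX17 was also called in a fit of the compared groups alone. The summed photosynthesis markers were lowest in replicate 1 too, at 13920 CPM against 19860 and 21100 in replicates 2 and 3, and 1 of the 3 markers fell. Their part in the group III values was not tested.

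Outside group III, COL2 (BBX3) fell with PIF3 over-expression too, at 39.4, 63.1 and 56.1 CPM against 79.7, 82.8 and 76.1. The log2 fold change was -0.59 (SE 0.18, adjusted p 0.0471), which lies close to the threshold. The call was lost without Col-0 replicate 1 (-0.59), 2 (-0.56) or 3 (-0.62) or PIF3 over-expression replicate 1 (-0.42) or 3 (-0.63), with library totals (-0.51) and with replicate number as a block (-0.60, adjusted p 0.0523). BBX32 stood at 2.14, 3.43 and 2.39 CPM, below all Col-0 libraries, with a log2 fold change of -0.75 (adjusted p 0.0842). BBX27 (AT1G68190) stood at 11.7, 21.7 and 23.4 CPM against 29.7, 26.4 and 26.1, with -0.53 (adjusted p 0.165). BBX30 was at 3.56, 4.92 and 3.46 CPM against 2.497, 2.67 and 3.06, with 0.54 (adjusted p 0.158). Neither these 3 nor the HY5 partners BBX21 (0.26, adjusted p 0.261) and BBX22 (-0.04, adjusted p 0.896) passed in the fit of 12 libraries. BBX32 was called lower in a fit of the compared groups alone. PIF3 over-expression replicate 1 gave the lowest value of its genotype in 18 of 27 members, against 2 for replicate 2 and 7 for replicate 3.

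**Figure D4:**
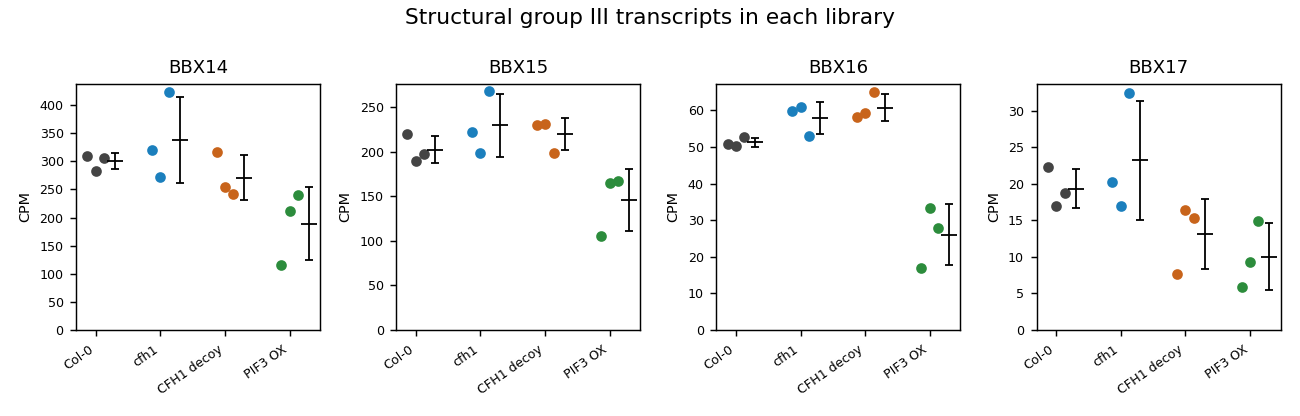
CPM of the 4 members of structural group III, 1 point per library for each genotype, with a dash and bar for the mean and SD of 3 libraries. BBX16 lies at 17.04 to 33.3 CPM with PIF3 over-expression and at 50.3 to 52.7 in Col-0, and replicate 1 of the over-expression line is the lowest in each panel.

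The members outside these accounts were not called in any comparison of the main fit. Group II includes COL9 (BBX7, AT3G07650), a repressor of flowering that lowers CONSTANS expression. Against Col-0 the group ranged from -0.18 to 0.22 in cfh1 on the log2 scale. It ranged from -0.06 to 0.11 in the decoy line and from -0.13 to 0.06 with PIF3 over-expression. COL9 itself was at 42.4 ± 3.23 CPM in Col-0, 49.5 ± 12.7 in cfh1, 45.8 ± 13.8 in the decoy line and 38.6 ± 8.26 with PIF3 over-expression. Between PIF3 over-expression and cfh1 it stood at -0.36 (adjusted p 0.341). BBX13 (AT1G28050) was the steadiest, at 16.4 ± 0.52, 16.5 ± 1.12, 16.6 ± 0.554 and 16.6 ± 0.695 CPM in those genotypes. BBX8 (COL10, AT5G48250), BBX11 (AT2G47890) and BBX12 (AT2G33500) stood at -0.06, 0.00 and 0.06 in the decoy line. In group IV, BBX18 (AT2G21320) and BBX19 (AT4G38960), which restrain photomorphogenesis or flowering, stood at -0.34 (adjusted p 0.109) and -0.25 (adjusted p 0.177) in the decoy line. Both were called lower there with library totals, as given above. BZS1 (BBX20, AT4G39070), a gene repressed by brassinosteroid signalling, stood at 0.02 (adjusted p 0.934) in that line.

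**Figure D5:**
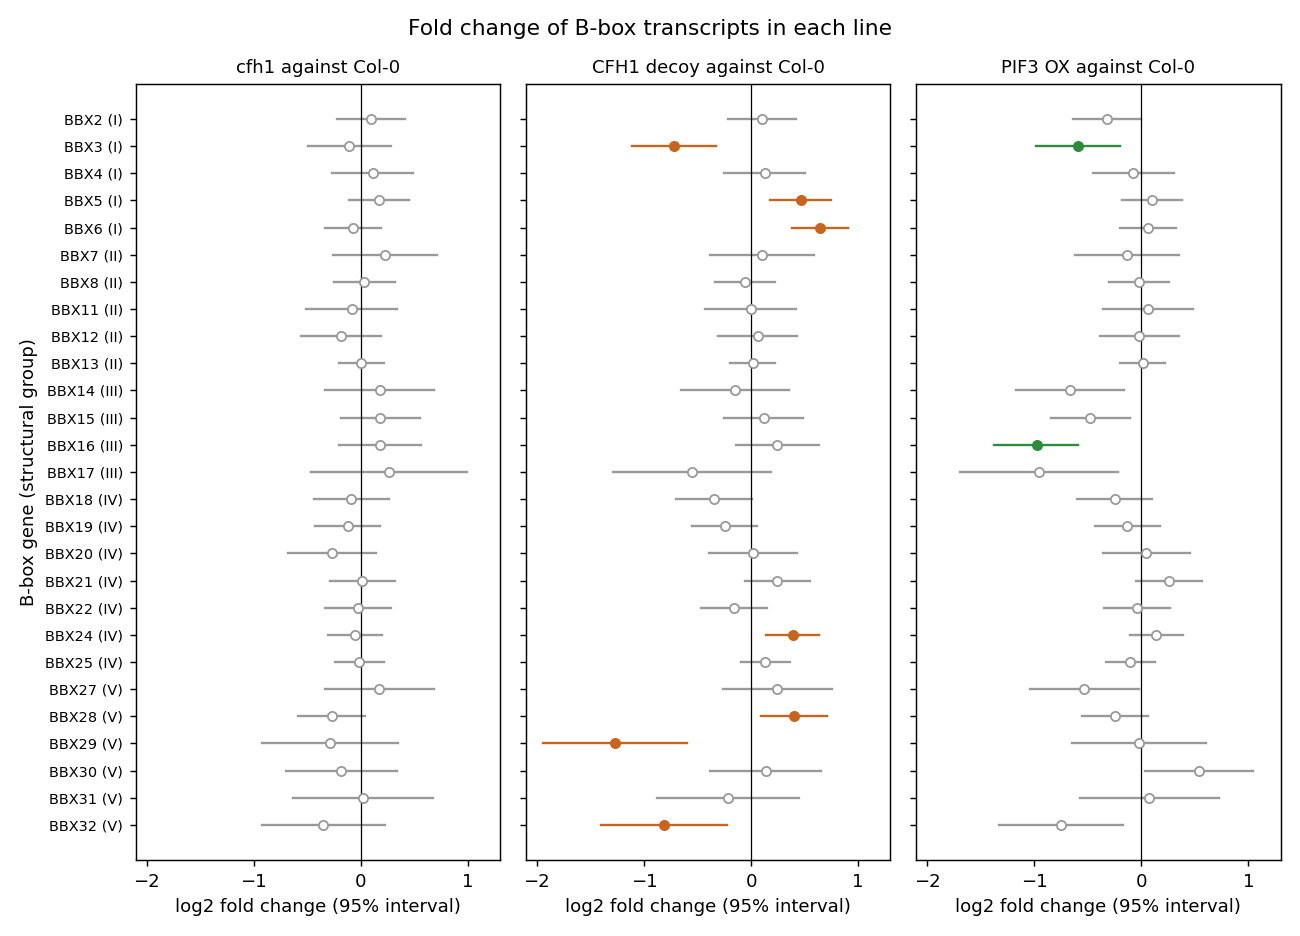
Log2 fold change (point) with its 95% interval (line) for the 27 tested B-box genes in each line against Col-0. Filled, coloured points are calls at an adjusted p under 0.05: 0 in cfh1, 7 in the decoy line and 2 with PIF3 over-expression.

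The lines were also compared with one another, since a call in only 1 line does not show that lines differ. Between the decoy line and cfh1, 3 members were higher and 2 lower in the decoy line, beside 15% and 18.2% of all genes. BBX6 (log2 fold change 0.72, adjusted p 0.000781), BBX28 (0.68, adjusted p 0.00346) and BBX24 (0.44, adjusted p 0.0108) were higher, and BBX3 (-0.61, adjusted p 0.0207) and BBX29 (-0.98, adjusted p 0.0296) lower. The rises of BBX6 and BBX28 held under all alternatives. Neither fall passed without decoy replicate 1 (-0.55 for BBX3 and -0.70 for BBX29), cfh1 replicate 1 (-0.57 and -1.005) or cfh1 replicate 2 (-0.47 and -0.87), and without decoy replicate 2 BBX29 did not pass (-0.99). In a fit of these groups alone, BBX24 (0.44) and BBX29 (-0.99) did not pass, and with library totals BBX24 did not (0.21, adjusted p 0.123). The differences for BBX5 (0.30, adjusted p 0.0964) and BBX32 (-0.46, adjusted p 0.21) did not pass.

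Between PIF3 over-expression and cfh1, all 4 members of group III were lower and 0 members were higher, beside 7.18% of all genes lower and 5.7% higher. At an unadjusted p under 0.05, 7 members were lower and 1 higher, beside 14.5% and 12.2% of all genes. The log2 fold changes were -0.84 for BBX14 (adjusted p 0.0342), -0.66 for BBX15 (adjusted p 0.0255), -1.15 for BBX16 (adjusted p 0.00261) and -1.22 for BBX17 (adjusted p 0.035). For BBX16, 17.04 to 33.3 CPM stood against 53.0 to 61.0 in cfh1. BBX16 was the sole member called lower without PIF3 over-expression replicate 1 or cfh1 replicate 1, in a fit of these groups alone and with library totals. There BBX14 (-0.58, -0.88, -0.82 and -0.75, in that order), BBX15 (-0.47, -0.68, -0.64 and -0.56) and BBX17 (-0.94, -1.305, -1.201 and -1.12) did not pass. Without cfh1 replicate 2, BBX14 (-0.97) and BBX17 (-1.39) did not pass and 2 members were called. Without cfh1 replicate 3, BBX14 (-0.65), BBX15 (-0.53) and BBX17 (-0.90) did not pass, while BBX2 and BBX3 were called lower. Without PIF3 over-expression replicate 2, BBX17 (-1.165) did not pass. BBX30 stood at 0.72 (adjusted p 0.0644) and was called higher by DESeq2, with library totals and without the decoy libraries. DESeq2 also called BBX27 of group V lower beside the 4 of group III, where the main fit did not (-0.71, adjusted p 0.0688).

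Between PIF3 over-expression and the decoy line, 7 members were lower and 1 higher in the former, beside 20.5% and 22.7% of all genes. BBX16 (log2 fold change -1.22, adjusted p 0.000186), BBX15 (-0.59, adjusted p 0.0136), BBX27 (-0.78, adjusted p 0.0178), BBX6 (-0.58, adjusted p 0.00193), BBX28 (-0.65, adjusted p 0.00278), BBX5 (-0.36, adjusted p 0.0394) and BBX2 (-0.42, adjusted p 0.034) were lower, and BBX29 was higher (1.25, adjusted p 0.0059). BBX2 was at 34.9, 47.1 and 49.8 CPM with PIF3 over-expression and at 62.3, 51.2 and 63.3 in the decoy line, and BBX27 at 30.0, 39.1 and 28.3 CPM in the latter. BBX3, low in both lines, differed between them by 0.13 (95% interval -0.262 to 0.519, adjusted p 0.592). With library totals as the scale, the median of all genes moved from 0.02 to 0.36. Then 7 members were higher and 1, BBX16 (-0.89), lower, beside 42.9% of all genes higher and 9.29% lower. On that scale BBX2 (-0.08), BBX5 (-0.01), BBX6 (-0.24), BBX15 (-0.26), BBX27 (-0.46) and BBX28 (-0.31) did not pass. BBX2 and BBX5 also lost their calls with replicate number as a block (-0.42 and -0.36), in a fit of these groups alone, and without decoy replicate 1 or PIF3 over-expression replicate 1. Without the latter, 4 members were lower, and BBX27 did not pass (-0.53), nor did it without decoy replicate 2 (-0.62). BBX2 was also lost without decoy replicate 3 (-0.36), and BBX5 without PIF3 over-expression replicate 2 (-0.36) or 3 (-0.39).

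The genes with which B-box factors act gave a different picture from line to line. Of 17 light signalling partners, 5 rose and 5 fell in the decoy line (median log2 fold change 0.17), 3 rose and 2 fell with PIF3 over-expression (-0.08), and 0 were called in cfh1 (0.10). Beside these counts, 19.6% of all genes rose and 21.2% fell in the decoy line, and 6% rose and 7.32% fell with PIF3 over-expression. In cfh1 the shares were 0.0141% and 0.0565%. Counts for this and the following lists are on the TMM scale only. The HY5 homologue HYH was at 39.9 ± 3.13 CPM in Col-0, 11.9 ± 2.33 in the decoy line (-1.74, adjusted p 1.84e-05) and 19.1 ± 3.99 with PIF3 over-expression (-1.06, adjusted p 0.00388). HY5, named after its values were seen, fell as well, by 0.66 in the decoy line (adjusted p 0.00125) and 0.48 with PIF3 over-expression (adjusted p 0.0215) on the log2 scale. HFR1, a bHLH protein that blocks PIF factors, rose to 31.9 ± 8.17 CPM with PIF3 over-expression from 3.46 ± 0.639 (3.21, adjusted p 1.18e-05) and also rose in the decoy line (1.05, adjusted p 0.00246).

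The calls among flavonoid and anthocyanin genes, a classical output of HY5, had opposite directions in these lines. Of 11, 7 fell and 0 rose in the decoy line (median log2 fold change -1.61), beside 21.2% and 19.6% of all genes. With PIF3 over-expression 6 rose and 0 fell (1.18), beside 6% and 7.32%. CHS, CHI, FLS1 and MYB12 passed in neither line, and CHI, FLS1 and MYB12 had the same sign in both. MYB111 fell in the decoy line (-1.61, adjusted p 0.00626) and stood at 0.04 with PIF3 over-expression (adjusted p 0.964). LDOX, an enzyme of anthocyanin synthesis, was at 19.1 ± 5.5 CPM in Col-0, 1.41 ± 0.257 in the decoy line and 74.8 ± 64.2 with PIF3 over-expression. MYB75, an activator of the pathway, was at 3.69 ± 2.96, 0.103 ± 0.0994 and 21.2 ± 11.2 CPM, and TT19, of anthocyanin transport, at 9.71 ± 3.34, 1.18 ± 0.248 and 51.7 ± 36.2 CPM. The log2 fold changes in the decoy line and with PIF3 over-expression were -3.72 and 1.97 for LDOX (adjusted p 0.000481 and 0.0196), -4.96 and 2.53 for MYB75 (0.000557 and 0.00778), and -3.001 and 2.42 for TT19 (0.000554 and 0.00415). Among the over-expression libraries the spread of LDOX was nearly as large as its mean. In cfh1, 0 of the 11 were called (median -0.41). At an unadjusted p under 0.05, cfh1 had 1 light signalling partner and 1 flowering gene higher, 1 flavonoid gene lower and 0 clock genes either way. The shares of all genes at that threshold were 2.11% higher and 2.43% lower.

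Of 10 genes of photoperiodic flowering, 9 were tested. In the decoy line 3 rose and 3 fell (median log2 fold change -0.41), beside 19.6% and 21.2% of all genes. With PIF3 over-expression 3 rose and 0 fell (0.14), beside 6% and 7.32%, and 0 were called in cfh1 (0.04). GI, a clock-linked activator of CONSTANS, rose in the decoy line (0.97, adjusted p 0.000796), and the DOF repressors of CONSTANS, CDF2 (-0.86, adjusted p 0.000621) and CDF1 (-0.57, adjusted p 0.0029), fell. CONSTANS itself, at 4.43 ± 0.788 CPM in Col-0, stood at 2.93 ± 0.732 in the decoy line (adjusted p 0.0688) and 2.87 ± 0.518 with PIF3 over-expression (adjusted p 0.104) and did not pass. Of 10 clock genes, 5 fell and 0 rose in the decoy line (-0.53), beside 21.2% and 19.6% of all genes. In cfh1 (-0.15) and with PIF3 over-expression (-0.11) 0 were called. In the latter 2 were lower at an unadjusted p under 0.05, beside 14.5% of all genes. ELF4 (-0.97, adjusted p 4.89e-05), CCA1 (-1.01, adjusted p 0.00248) and LHY (-0.75, adjusted p 0.00544) were among the falls. The comparisons with Col-0 share its 3 libraries, and each value above is given for its own comparison.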

How the data were processed

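The authors deposited estimated counts for 27588 genes in 12 libraries; 41.57% of the values are not whole (tolerance 1e-09). Per the submitters' processing notes, tools named were Trimmomatic 0.39, then HISAT2 2.1.0 and StringTie 2.1.2, with build TAIR10. No source used here states their roles, the counting step or whether it used strand. Groups came from the description labels.

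Counts were rounded and analysed in R 4.3.3 with edgeR 4.0.16: filterByExpr (minimum count 10) left 21235 genes, followed by TMM scaling, 1 mean per genotype (8 residual degrees of freedom), 2-sided quasi-likelihood tests of 6 comparisons and Benjamini-Hochberg adjustment. The procedure was tested on simulated data with 1 common dispersion for all genes. For cfh1 against Col-0 it recovered 12% of changes of 1.5-fold and 82% of changes of 2-fold. Alternatives were RLE factors, library totals, DESeq2 1.42.0, no filter, 1 CPM in 3 libraries, fits of the compared groups alone, a replicate block, unrounded counts and leaving out each library; leaving out the decoy line was chosen after seeing the data. Members and lists were chosen with earlier results of these data known. All members are accounted for, with values in single libraries for those called, though not in every genotype. Up to 3 genes per list were picked by smallest adjusted p, and HY5, CONSTANS and further flavonoid genes are named besides. Coordinates, exon lengths, translations and promoter windows come from the RefSeq TAIR10.1 annotation, matched by locus code for all 31 members.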

Additional observations from a re-analysis of the deposited data

How the results depend on the processing

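Of 26 calls of single members over the 6 comparisons, 9 held under every alternative, and 0 changed direction. Those that held are BBX3, BBX6 and BBX29 in the decoy line against Col-0, BBX6 and BBX28 in the decoy line against cfh1, BBX29 with PIF3 over-expression against the decoy line, and BBX16 with PIF3 over-expression against each other genotype. With library totals, the decoy line had 1 member higher and 5 lower against Col-0, and 2 higher and 4 lower against cfh1. PIF3 over-expression had 1 lower against Col-0, 1 higher and 1 lower against cfh1, and 7 higher and 1 lower against the decoy line. That scale also moved the split of all genes, from 4163 higher and 4504 lower to 1720 and 6929 in the decoy line, from 1275 and 1554 to 1818 and 1140 with PIF3 over-expression against Col-0, from 3191 and 3864 to 1304 and 6039 for the decoy line against cfh1, from 1211 and 1524 to 1664 and 904 for PIF3 over-expression against cfh1, and from 4827 and 4363 to 9120 and 1973 against the decoy line. DESeq2 called 5 members lower with PIF3 over-expression against Col-0, beside 2072 of 21792 genes. Against cfh1 it called 5 lower and 1 higher, beside 1982 and 1589 of 22268 genes. Fits of the compared groups alone gave 4 members lower for PIF3 over-expression against Col-0, beside 2349 of 20893 genes. They gave 1 lower for PIF3 over-expression against cfh1, beside 1304 of 20841 genes. For the decoy line against cfh1 they gave 1 lower, beside 2522 of 20660 genes. Without the decoy libraries, 1 member was higher with PIF3 over-expression against cfh1, and no share of all genes is given for that fit. The cause of these moves was not tested.

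Leaving out single libraries gave 1 to 5 members higher in the decoy line against Col-0 and 2 to 3 lower, and 3 to 4 higher and 0 to 2 lower against cfh1. For PIF3 over-expression it gave 1 to 3 lower against Col-0, 1 to 4 lower against cfh1 and 4 to 7 lower against the decoy line. No share of all genes is given for these fits. A move of the members therefore cannot be told apart from a change in how many genes pass. In cfh1 against Col-0, 0 members were called either way under all alternatives run. The labels used here give same-numbered libraries only a number in common. Their deviations correlated across genes at -0.364 to 0.271 over 18 pairs, and those of differently numbered ones at -0.23 to 0.367. Each deviation is taken from the mean of its own genotype, so these values cannot decide whether same-numbered libraries shared a batch. With the replicate block, 4 members were higher and 3 lower in the decoy line, beside 3703 and 4292 of 21235 genes. With PIF3 over-expression 2 were lower, beside 1326 genes, and there BBX17 was called and BBX3 was not. Low levels limit BBX29, with 8 to 39 counts per decoy library, and the 4 untested members. RLE factors, either filter and unrounded counts called the same members as the main fit in every comparison.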
